A study of Mus musculus with 2 samples.

Results

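The cells described here were Lyz2-bearing myeloid cells from the livers of 2 mouse models of primary biliary cholangitis (PBC, an autoimmune disease of the small bile ducts) that were captured together in 1 library. Members were cells of that library with at least 3 unique molecular identifiers (UMIs, 1 per captured RNA molecule) of Lyz2, the lysozyme gene of neutrophils, monocytes and macrophages, and with none of Cd3e or Cd79a, which mark T and B cells. They were thus selected on their own measured counts of these 3 genes. Of 10026 cells in the library and 34137 in the series, 324 met this rule. The library held CD45+ cells (leucocytes) of dnTGFβRII mice, called TG, and of IFN-γ ARE-Del-/- mice, both on C57BL/6 and labelled as 10 weeks old, although the methods give a younger age for TG mice. TG mice carry a transgene for a human TGF-β type II receptor with dominant negative action, driven in T cells by the CD4 promoter of the mouse. The ARE-Del allele lacks the AU-rich element of the Ifng transcript. That element destabilises the RNA, so the transcript lasts longer without it. The number of mice per genotype was not given, so cells of a group may come from 1 animal or several. A deposited annotation names 4647 cells of the library as TG, 125 of them members. The other 5379 cells, 199 of them members, have no genotype in the sources and are called unnamed. They may be mostly IFN-γ ARE-Del-/- cells, but this is not certain, and some may be TG cells that did not pass the filters of the annotation. The other library of the series held P40-/-IL-2Ra-/- and wild type (WT) cells and is used for shared barcodes and WT values only.

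Interferon gamma (IFN-γ) is made by T and NK cells and acts on myeloid cells through a receptor of paired chains on their surface. Its classical targets are the guanylate binding proteins (Gbp genes) and immunity-related GTPases (Irg genes such as Irgm1, Igtp and Ifi47), which attack the vacuoles of intracellular microbes, together with the chemokine Cxcl10, the inhibitory ligand Cd274 (PD-L1) and the antigen presentation genes of MHC class I and II. In the liver, neutrophils and patrolling monocytes are blood-derived cells of the sinusoids, whereas Kupffer cells are the resident macrophages.

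Members made up 3.70% of unnamed cells (95% interval 3.21 to 4.24) and 2.69% of TG cells (2.24 to 3.20). As the rule chose the cells on Lyz2, no reading is drawn from that gene. The rule's edge fell among 32 cells with 3 Lyz2 UMIs, 19 of them unnamed, which were members, and 34 cells with 2 Lyz2 UMIs, 18 of them unnamed, which were not. Unnamed members held 918060 UMIs (median 3975 per cell) and TG members 518143 (median 3181). The median mitochondrial share was 1.98% in unnamed and 1.07% in TG members. At least 2 UMIs of a T, NK or B cell marker list were found in 109 unnamed and 60 TG members, and 7 member barcodes also occur in the other library. There was 1 library, and cells are not replicates of a genotype, so no test was possible: values are summed UMIs scaled to counts per 1000000 UMIs of the group (CPM), and intervals are exact 95% ones that cover counting error only, not variation between cells or mice. A gene is counted as 2-fold higher or lower where the ratio of the groups passes 2-fold, among genes with at least 20 UMIs over both groups.

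By their markers the members were not 1 cell type. Clustering of both groups together, with the interferon and MHC genes left out, gave 6 clusters. The first, of 109 unnamed and 26 TG cells, carried patrolling monocyte markers (Cd300e, Adgre4, Ace and Gngt2) and is called patrolling-monocyte-like. In that cluster the 13 patrolling monocyte markers summed to 11634 CPM in unnamed and 11378 CPM in TG cells. The next, of 70 unnamed and 54 TG cells, carried neutrophil markers, and the 20 neutrophil markers summed there to 109206 and 96501 CPM. It is called the largest neutrophil-like cluster. A pair of smaller neutrophil-like clusters held 6 unnamed and 16 TG cells led by the granule genes Camp, Ltf and Ngp, and 2 unnamed and 17 TG cells led by Mmp8, Retnlg and Mmp9. The remaining clusters were left without a name: 7 unnamed and 11 TG cells led by Ccnd1, Cd34 and Flt3, and 5 unnamed and 1 TG cells led by Gzmb, Nkg7 and Gzma, which are genes of killer lymphocytes.

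These names differ from those of the deposited annotation. All 26 TG cells of the patrolling-monocyte-like cluster were annotated as macrophages. In that cluster 9 of 17 Kupffer cell or macrophage markers were detected and summed to 688 CPM in unnamed and 376 CPM in TG cells, up to 73.8 and 29.6 UMIs per 10000 in a cell, and 8 were at 0, among them the Kupffer genes Vsig4 and Timd4. All 54 TG cells of the largest neutrophil-like cluster were annotated as monocytes. In that cluster 12 of 13 classical monocyte markers were detected and summed to 6789 CPM in unnamed and 5209 CPM in TG cells. Of these markers, Ly6c2 had 263 and 59 UMIs and Plac8 205 and 38, whereas Ccr2, the chemokine receptor of these monocytes, had 1 and 5. The granulocyte receptor gene Csf3r had 672 and 510 UMIs there. Some leading genes of the clusters were themselves past 2-fold between the groups (3 of 10 in the patrolling-monocyte-like and 1 of 10 in the largest neutrophil-like cluster), so the cell numbers are given as the makeup of the groups and not compared.

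Over all members, 12 of 15 IFN-γ-inducible GTPases with at least 20 UMIs were at least 2-fold higher in unnamed cells. Of 6740 genes compared, 743 were at least 2-fold higher in unnamed members (11%) and 292 at least 2-fold lower (4.33%). With TMM scaling in place of totals, which lowered every ratio by 0.14 on the log2 scale (-0.14), these counts were 543 and 382. The list holds 18 GTPases, and the median log2 ratio of the 15 was 1.20 against 0.18 for all genes. With TMM scaling 9 of the 15 were past 2-fold, and 4 of the 12 had fewer than 10 TG UMIs, so that they passed the minimum through the unnamed group. Of 18 IFN-γ signalling genes 4 and of 19 induced effectors 8 were at least 2-fold higher and none was lower, with medians of 0.55 and 0.63. The difference between these lists and the GTPases was not tested. Irf9 (-0.37) and Ly6c2 (-0.74) had intervals below 0. Gbp2 stood at 839 CPM in unnamed and 365 CPM in TG members, Irgm1 at 429 and 166 CPM, and Cd274 at 358 and 152 CPM.

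Leading genes of single clusters stood among the other extremes over all members. In a ranking limited to genes of 100 or more UMIs, 10 or more of them per group, the highest ratios belonged to Ms4a6d (230 and 28.9 CPM), Adgre1, which encodes the macrophage antigen F4/80 (175 and 23.2 CPM), and Calhm6 (150 and 21.2 CPM), and Cd300e, Cd36, Lair1, Smpdl3b, Pla2g16 and Ly6i were also among the 10 highest. Cxcl10 was the only member of an IFN-γ list among those 10, at 404 and 81.1 CPM. The lowest were the neutrophil integrin gene Itgb2l, AA467197 and the granule genes Ltf (715 and 5120 CPM), Camp (800 and 5448 CPM) and Ngp (2246 and 14565 CPM). Crispld2, Adpgk, the granule gene Lcn2, Cd177 and Ly6g completed the 10 lowest. The 20 neutrophil markers together made up 42084 CPM of unnamed and 121845 CPM of TG members, and the part of the makeup in these ratios was not tested over all members. The comparison was therefore repeated within the clusters. The planned comparison was that of all neutrophil-like cells together, and the comparison within the largest neutrophil-like cluster alone was added to it.

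**Figure D1:**
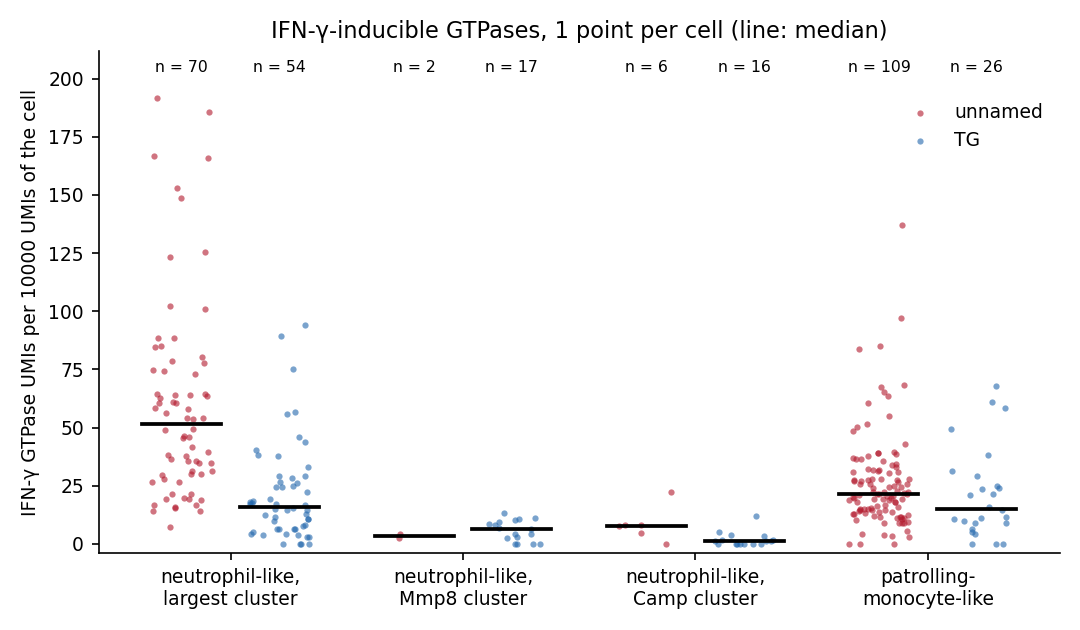
Each point is 1 cell, and the vertical axis gives the summed UMIs of the 18 IFN-γ-inducible GTPases per 10000 UMIs of that cell, for unnamed (red) and TG (blue) cells of 4 clusters, with the median as a line. In the largest neutrophil-like cluster the medians are 51.6 and 15.9, and in the patrolling-monocyte-like cells 21.6 and 15.2.

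In the largest neutrophil-like cluster, unnamed cells carried more RNA of the IFN-γ-inducible GTPases than TG cells. The 18 GTPases summed to 5847 CPM in unnamed cells (5548 to 6157) and 2301 CPM in TG cells (2063 to 2558). Cell by cell, as the plot of GTPase levels shows, unnamed cells had from 7.16 to 192 GTPase UMIs per 10000 (median 51.6) and TG cells from 0 to 93.9 (median 15.9). The ranges overlapped, but 5 of 54 TG cells reached the unnamed median and 5 of 70 unnamed cells lay at or below the TG median. Of 10 GTPases with at least 20 UMIs, 7 were at least 2-fold higher, against 4.60% of the 2454 genes compared (113 genes), and none was 2-fold lower, against 3.99% (98 genes). Of these 7, Gbp3, Gbp4 and Gbp5 had fewer than 10 TG UMIs and passed the minimum through the unnamed group, so the count is given as a description. TMM scaling raised each ratio of the cluster by 0.15 on the log2 scale, with 9 of 10 GTPases and 181 of all genes then at least 2-fold higher and 51 of all genes lower. The median log2 ratio of the GTPases was 1.34, against -0.05 for all genes. The intervals of 9 of these 10 genes lay above 0.

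Gbp4 had 44 UMIs in unnamed cells and none in TG cells, at least 8.83-fold higher against a floor of 3 UMIs over the group. Gbp3 had 28 and 2 UMIs (log2 ratio 2.78, interval 1.09 to 6.19), Gbp5 52 and 8 UMIs (211 and 54.0 CPM), and Gbp2 399 and 111 UMIs (1.11, 0.81 to 1.43). Gbp2, on chromosome 3 (142620602 to 142638008, mm10), was seen in 98.6% of unnamed and 63.0% of TG cells. Thinned to 1000 UMIs per cell, these shares were 71.4% and 40.7%, beside 11.7% and 6.89% in B cells of the same groups. The median depth was 3344 UMIs in unnamed and 2655 in TG cells of the cluster, and 2719 and 3035 UMIs in unnamed and TG B cells. Gbp4, Gbp8 and Gbp9 overlap in the annotation of chromosome 5, and Gbp genes are close copies of each other, so the split of UMIs among them is uncertain.

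Among the Irg genes, Ifi47 stood at 772 CPM in unnamed and 256 CPM in TG cells (log2 ratio 1.58, 1.08 to 2.13). Irgm1, a regulatory member of the family on chromosome 11, stood at 869 and 290 CPM (1.57, 1.11 to 2.09). Igtp (390 and 196 CPM) and Irgm2 (398 and 202 CPM) lay just under 2-fold. They overlap in the annotation of chromosome 11, so the split of UMIs between them is uncertain.

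The ratios of other IFN-γ targets were unequal. Cxcl10, which attracts T cells through CXCR3, had the highest ratio of the cluster among genes with at least 100 UMIs and 10 in each group: 1097 CPM in unnamed and 155 CPM in TG cells (log2 ratio 2.79, 2.21 to 3.50). It was present in 36 of 70 unnamed and 10 of 54 TG cells, and 3 cells held 31.1% of its unnamed and 56.5% of its TG UMIs. Thinned to equal depth, 32.9% of unnamed and 12.96% of TG cells had a Cxcl10 UMI, against 0.709% and 0.848% of B cells. Cd274 stood at 540 and 229 CPM (1.22, 0.68 to 1.82), and Casp1, the protease that matures IL-1β, had 41 and 11 UMIs (1.12, 0.18 to 2.28). Ly6c2, a surface protein of myeloid cells that is also on the classical monocyte list, stood at 1069 and 398 CPM, although its Ly6 relatives are close copies.

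Genes of the receptor and of the signalling pathway had unequal ratios. Ifngr1 and Ifngr2, the receptor chains, stood at log2 ratios of 0.05 (-0.79 to 0.96) and -0.14 (-0.80 to 0.55). Irf1, a transcription factor induced by interferons, stood at 0.60 (0.38 to 0.84). Socs1, the feedback inhibitor of the receptor, had 44 and 6 UMIs (2.04, 0.91 to 3.66), and Stat2 70 and 17 (1.28, 0.53 to 2.17). Together 2 of 13 signalling genes and 4 of 13 induced effectors with at least 20 UMIs were at least 2-fold higher, against 4.60% of all genes, and none was 2-fold lower, against 3.99%. Socs1, 1 of these 2 signalling genes, passed the minimum through the unnamed group.

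**Figure D2:**
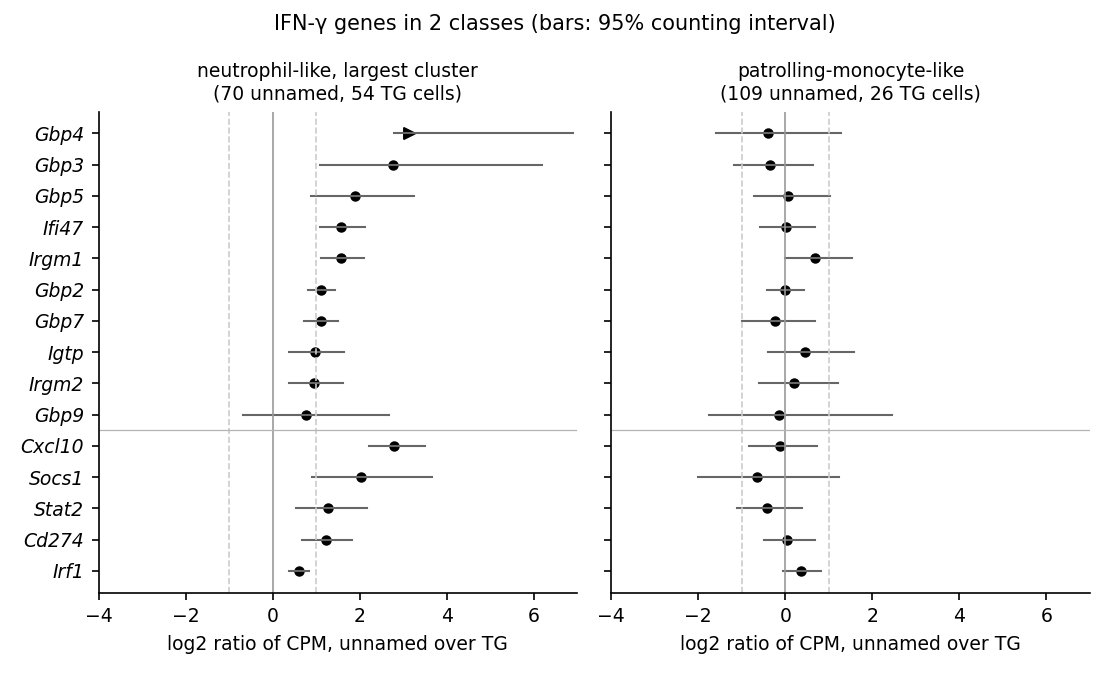
Log2 ratios of CPM (unnamed over TG) of IFN-γ-inducible GTPases (upper rows) and of other IFN-γ genes (lower rows) in the largest neutrophil-like cluster (left) and the patrolling-monocyte-like cells (right), with 95% counting intervals as bars. The triangle marks Gbp4 at its lower bound, since TG cells had no UMI, and dashed lines mark 2-fold. Cxcl10 lies at 2.79 on the left and at -0.13 on the right.

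The promoters of the IFN-γ list genes with at least 100 UMIs and the highest ratios over all members (Cxcl10, Ly6a, Irf5 and Fcgr4) were read from RefSeq (GRCm38.p6, 250 bases before to 50 after the start site), and those of Gbp2 and Irgm1 were added after their values were seen, because they are the GTPases described above. Ly6a had no entry. They were searched on both strands for GAAANNGAA, the core of the interferon-stimulated response element, and for TTCNNNGAA, the gamma-activated sequence of IFN-γ target genes. Capitals mark matches to the former, and none of these 5 windows held the latter.
Cxcl10 (chr5:92348840-92349139, minus strand): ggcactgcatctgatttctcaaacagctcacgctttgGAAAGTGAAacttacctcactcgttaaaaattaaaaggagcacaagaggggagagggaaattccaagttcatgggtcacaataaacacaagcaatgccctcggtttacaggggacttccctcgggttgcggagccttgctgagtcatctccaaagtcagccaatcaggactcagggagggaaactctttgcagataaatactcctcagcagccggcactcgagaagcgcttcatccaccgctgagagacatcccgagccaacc
Gbp2 (chr3:142620413-142620712, plus strand): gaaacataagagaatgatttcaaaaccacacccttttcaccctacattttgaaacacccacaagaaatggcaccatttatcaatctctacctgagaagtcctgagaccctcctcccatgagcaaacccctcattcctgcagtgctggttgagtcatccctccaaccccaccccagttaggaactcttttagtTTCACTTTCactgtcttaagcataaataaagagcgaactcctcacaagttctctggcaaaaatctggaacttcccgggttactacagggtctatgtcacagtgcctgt
Irgm1 (chr11:48871371-48871670, minus strand): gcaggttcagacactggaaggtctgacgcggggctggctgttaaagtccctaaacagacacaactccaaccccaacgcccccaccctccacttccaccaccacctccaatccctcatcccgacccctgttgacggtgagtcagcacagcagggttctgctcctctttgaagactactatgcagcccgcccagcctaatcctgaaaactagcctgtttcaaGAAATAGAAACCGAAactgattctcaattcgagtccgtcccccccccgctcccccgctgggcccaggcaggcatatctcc
Fcgr4 (chr1:171018676-171018975, plus strand): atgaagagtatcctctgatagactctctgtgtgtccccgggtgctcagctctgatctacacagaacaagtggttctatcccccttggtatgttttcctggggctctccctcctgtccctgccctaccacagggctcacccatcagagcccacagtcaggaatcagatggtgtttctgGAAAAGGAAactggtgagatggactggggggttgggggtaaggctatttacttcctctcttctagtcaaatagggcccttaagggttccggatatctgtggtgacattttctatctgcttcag
Irf5 (chr6:29526375-29526674, plus strand): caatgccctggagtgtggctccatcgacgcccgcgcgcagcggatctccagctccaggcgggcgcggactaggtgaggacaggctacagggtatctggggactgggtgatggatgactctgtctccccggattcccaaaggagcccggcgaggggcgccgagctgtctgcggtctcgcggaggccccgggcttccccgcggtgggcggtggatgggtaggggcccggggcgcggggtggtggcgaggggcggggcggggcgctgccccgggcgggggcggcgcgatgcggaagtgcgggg
The match began 213 bases before the start site in Cxcl10 (-213), at -58 in Gbp2 (on the minus strand), at -73 in Fcgr4, and at -30 and -24 in Irgm1, where a pair of matches overlap, and Irf5 held none. Of 11 GTPase promoters in the table, 10 held the response element core and 6 the gamma-activated sequence, against 8.57% and 8.47% of all 27025 promoters. A match is a description of these letters, not a bound site.

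In the largest neutrophil-like cluster all 16 MHC class I and all 5 MHC class II pathway genes with at least 20 UMIs had a ratio above 1, against 1129 of all 2454 genes, but few cells held much of the class II RNA. Class II genes had a median log2 ratio of 1.11. Cd74, the invariant chain, had 253 UMIs in unnamed and 72 in TG cells (1.07, 0.70 to 1.48), although 3 cells held 47.8% of the unnamed UMIs. H2-Aa stood at 268 and 115 CPM and H2-Eb1 at 211 and 87.7 CPM, with 62.1% and 69.2% of their unnamed UMIs in 3 cells, and thinned to 1000 UMIs H2-Ab1 was seen in 17.1% of unnamed and 20.4% of TG cells, so no direction is read from these 3 genes. Ctss, the protease that trims the invariant chain, stood at 674 and 310 CPM with 22.3% of unnamed UMIs in 3 cells. Class II genes are abundant in B cells, and the 10 B cell markers summed to 1105 CPM in unnamed and 1086 CPM in TG cells of the cluster. Other marker lists went both ways in their summed log2 ratios. Type 1 conventional dendritic cell markers stood at 0.31 (0.02 to 0.61) and classical monocyte markers at 0.38 (0.26 to 0.51). Of the 1671 unnamed and 772 TG UMIs of the classical monocyte markers, Ly6c2 held 263 and 59, and Plac8 205 and 38. Kupffer cell or macrophage markers stood at -0.64 (-1.04 to -0.24). Of their 112 unnamed and 105 TG UMIs, 77 and 83 were of Slc40a1 alone, so the sum is mostly 1 gene. The part of such cells in the ratios of this cluster was not tested. Class I genes had a median of 0.65: B2m, the light chain, stood at 7041 and 4804 CPM (0.55, 0.42 to 0.68), H2-K1 at 3259 and 2314 CPM, and Psme2, a proteasome activator, at 199 and 47.2 CPM (1.99, 0.93 to 3.46). Psme2 had fewer than 10 TG UMIs and passed the minimum through the unnamed group.

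Of 26 genes known chiefly as targets of type I interferon with at least 20 UMIs, none was 2-fold higher or lower in the largest neutrophil-like cluster, against 4.60% and 3.99% of all genes. Their median log2 ratio was 0.20, with 19 of 26 above 0, and their summed CPM had a log2 ratio of 0.32. Over all neutrophil-like cells 7 of 28 were at least 2-fold higher, against 6.49% of all genes. Rsad2, the antiviral protein viperin, stood at 670 and 884 CPM (-0.40, -0.74 to -0.06), Ifit1 at 333 and 445 CPM, and Oasl2 at 2076 and 1896 CPM (0.13, -0.08 to 0.35). The nearest to 2-fold were Ifi27l2a (0.96) and Zbp1 (0.95), and TMM scaling took both past it. The difference between this list and the GTPases was not tested.

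Other genes of the largest neutrophil-like cluster went both ways. Upp1, a uridine phosphorylase, had 110 UMIs in unnamed and 17 in TG cells (1.93, 1.22 to 2.79). Plac8, on the classical monocyte list, had 205 and 38 (1.68, 1.19 to 2.24). Among genes with at least 100 UMIs, the lowest ratios belonged to Cd300a, an inhibitory receptor (183 and 425 CPM, -1.21), Slc7a11, the cystine transporter (199 and 391 CPM, -0.97), Arg2, an arginase (264 and 479 CPM, -0.86), and the chemokine receptor Cxcr4 (451 and 803 CPM, -0.83). Jaml, Slc40a1, Ier3, Tor1aip1, Fam111a and Cox8a completed the 10 lowest, between -0.79 and -0.90. Of 12 inflammatory cytokines and chemokines, 1 had a ratio above 1, against 1129 of all 2454 genes, and 1 was at least 2-fold lower, against 3.99% of all genes, Ccl3 (142 and 317 CPM), which TMM scaling brought inside 2-fold. In 3 cells lay 57.1% of its unnamed and 72.3% of its TG UMIs. Il1b, the most abundant cytokine after Cxcl2, stood at 9426 and 9925 CPM (-0.07, -0.17 to 0.02), and Cxcl2, which draws in neutrophils, at 11003 and 13900 CPM. Immediate early genes had a median of -0.27, with Egr1 at -0.71 and Fos at -0.53, while Nfkbia, the inhibitor of NF-κB, stood at 0.02.

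**Figure D3:**
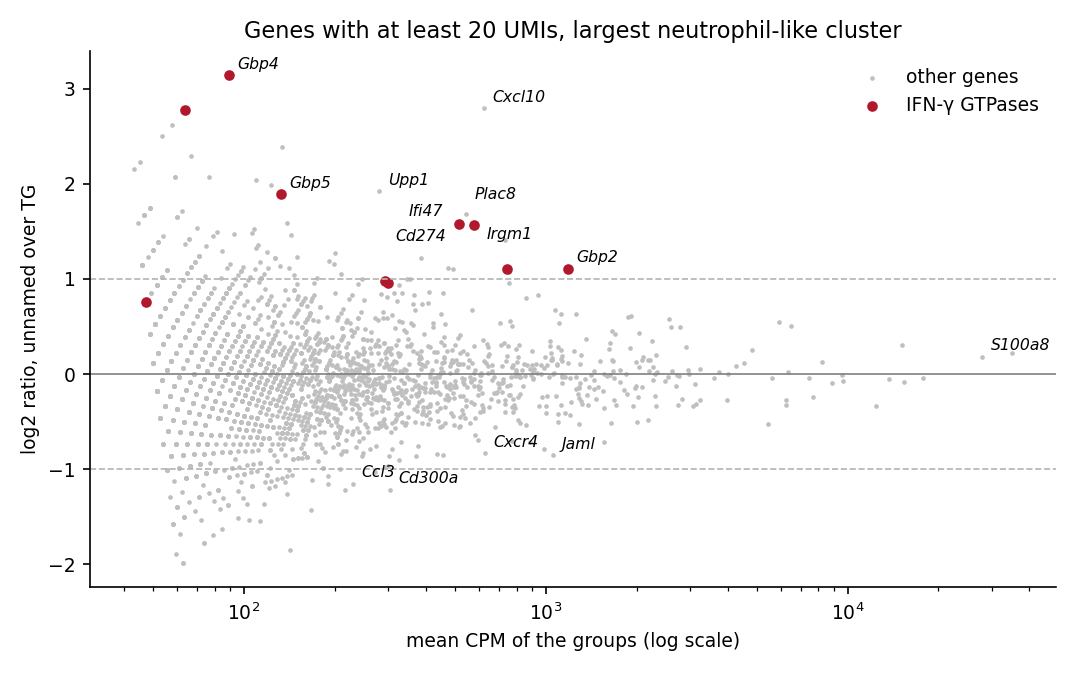
Log2 ratio of unnamed over TG (vertical) against the mean CPM of the groups (horizontal, log scale) for genes with at least 20 UMIs in the largest neutrophil-like cluster, with the IFN-γ-inducible GTPases in red, Gbp4 at its bound against 3 UMIs and dashed lines at 2-fold. All 10 GTPases lie above 0, and abundant neutrophil genes such as S100a8 (0.18) lie near it.

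In the patrolling-monocyte-like cells the same GTPases lay near a ratio of 1. They summed to 2699 CPM in unnamed cells (2557 to 2847) and 2421 CPM in TG cells (2111 to 2764). None of 14 with at least 20 UMIs was 2-fold higher or lower, against 9.02% (404 genes) and 6.46% (289 genes) of 4477 genes compared, and their median log2 ratio was 0.04. TMM scaling raised each ratio of these cells by 0.16, still with none of the 14 past 2-fold, and gave 523 genes higher and 185 lower. Of the 404 genes, 388 had fewer than 10 UMIs in the TG cells. Gbp2 stood at 640 and 641 CPM (-0.01, -0.41 to 0.43), Ifi47 at 294 and 287 CPM (0.01, -0.58 to 0.69), Cxcl10 at 186 and 199 CPM (-0.13, -0.84 to 0.72) and Cd274 at 348 and 332 CPM (0.05, -0.50 to 0.68). Per cell, 10 of 26 TG cells reached the unnamed median and 34 of 109 unnamed cells lay at or below the TG median. The highest ratio of the list was that of Iigp1 (282 and 155 CPM, 0.82, 0.07 to 1.77). Without cells that carried lymphocyte transcripts, which left 44 unnamed and 9 TG cells and 10 GTPases, the median was 0.74. The TG cells were 26 in number, fewer than the 40 first required of a class, and this class was compared after the data were seen. Of the 14 GTPases, 5 had fewer than 10 TG UMIs. Induced effectors in these cells had a median log2 ratio of 0.41 and a summed one of 0.27 (0.14 to 0.42). Of 16, 1 was at least 2-fold higher and 1 lower, against 9.02% and 6.46% of all genes, and with TMM scaling 4 and 1. The 1 higher without TMM scaling had fewer than 10 TG UMIs and passed the minimum through the unnamed group. Signalling genes had a median of 0.08 and a summed log2 ratio of 0.16 (0.01 to 0.32), with 2 of 17 at least 2-fold higher and none lower. Both of these 2 had fewer than 10 TG UMIs and passed the minimum through the unnamed group, so the count is given as a description. Whether the ratios differ between the neutrophil-like and patrolling-monocyte-like cells was not tested.

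Of 15 Fc and pattern receptors in the patrolling-monocyte-like cells, 1 was at least 2-fold higher in unnamed cells and none was lower, against 9.02% and 6.46% of all genes, and the median log2 ratio was 0.21. That 1 was Cd14, the co-receptor for lipopolysaccharide, with 53 UMIs in unnamed and 2 in TG cells. It passed the minimum through the unnamed group. Fcgr4, the IgG receptor typical of these cells, stood at 2291 CPM in unnamed and 1448 CPM in TG cells (0.66, 0.40 to 0.93), and Ly6a at 1339 and 774 CPM (0.78, 0.43 to 1.17). Irf5, a transcription factor of inflammatory macrophages, had 84 and 6 UMIs (1.23, 0.16 to 2.83) and likewise passed the minimum through the unnamed group. Fcgr4 and Ly6a are on the list of IFN-γ induced effectors, and Irf5 is on that of IFN-γ signalling genes. Ccl5 is on the induced effector list too and had its lowest ratio in these cells (-1.65). Fpr2, a formyl peptide receptor, stood at 562 and 221 CPM (1.31, 0.69 to 2.08), the integrin gene Itgb7 at 326 and 133 CPM (1.24, 0.45 to 2.28), and Adgre1 at 310 and 88.5 CPM (1.73, 0.80 to 3.05). Adgre1 had fewer than 10 TG UMIs in these cells. C5ar1, the receptor of complement fragment C5a, had 45 UMIs in unnamed cells and none in TG cells, at least 2.71-fold higher. Of 13 chemokine receptors and adhesion genes, 4 were at least 2-fold higher and none lower, against 9.02% and 6.46% of all genes, and 2 of the 4 had fewer than 10 TG UMIs.

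Chemokines and cytokines of these cells split by gene. Ccl4 stood at 826 and 310 CPM (1.39, 0.86 to 2.02) and Ccl3 at 1077 and 520 CPM (1.04, 0.62 to 1.51). In 3 TG cells lay 50% of the TG UMIs of Ccl4 and 72.3% of those of Ccl3. Cells with a Ccl4 UMI made up 60.6% of unnamed and 61.5% of TG cells, and 32.1% and 15.4% when thinned to 1000 UMIs, beside 5.07% and 7.21% of B cells. Ccl5 stood at 282 and 885 CPM (-1.65, -2.05 to -1.23) and Ccl9 at 140 and 431 CPM (-1.63, -2.21 to -1.02), with 58.8% and 53.8% of their TG UMIs in 3 cells. Thinned to 1000 UMIs, 23.9% of unnamed and 46.2% of TG cells had a Ccl5 UMI, beside 23.4% and 25.1% of B cells, so the unnamed share lay near that of B cells. Single cells weighed on further values: all 84 UMIs of Ccl24 came from 1 TG cell, and 3 TG cells held 97.4% of the TG UMIs of Il1rn, the IL-1 receptor antagonist. Of 12 inflammatory cytokines and chemokines, 4 were at least 2-fold higher and 3 lower, against 9.02% and 6.46% of all genes. Ccl5 is not on that list but on that of IFN-γ induced effectors, where it was the 1 gene at least 2-fold lower. Tnf stood at 384 and 697 CPM (-0.87, -1.28 to -0.42).

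Among genes with at least 100 UMIs and 10 in each group, the highest ratio of the patrolling-monocyte-like cells was that of the neutrophil gene S100a8 (612 and 155 CPM), of which 3 cells held 78.8% of the unnamed UMIs. The 20 neutrophil markers summed there to 2403 CPM in unnamed and 1139 CPM in TG cells, none of them was at 0, and the range per 10000 UMIs was 0 to 410 and 0 to 48.1. Without cells that carried lymphocyte transcripts the log2 ratio of S100a8 was -0.17 and that of Il1b (1.18 with them) was -0.07. Rgs1, Ms4a6d, Calhm6, Taldo1 and Ccrl2 completed the 10 highest, between 1.13 and 1.40.

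Within the same limits the lowest ratio was that of Apoe, the apolipoprotein of macrophages, at 360 CPM in unnamed and 1194 CPM in TG cells (-1.73, -2.08 to -1.37). It was seen in 39 of 109 unnamed and 19 of 26 TG cells, and, thinned to 1000 UMIs, in 18.3% and 65.4%, beside 8.41% and 9.23% of B cells. Of 9 lipid and tissue remodelling genes, 3 were at least 2-fold lower, against 6.46% of all genes: Apoe, the lipoprotein lipase gene Lpl (102 and 210 CPM, all TG UMIs in 2 cells) and the fatty acid binding gene Fabp4 (58.0 and 221 CPM). With TMM scaling Lpl lay inside 2-fold. Itgax, which encodes CD11c, stood at 190 and 409 CPM (-1.12, -1.67 to -0.52). Marker lists of other cells went both ways in this cluster. The 12 markers of type 2 conventional dendritic cells summed to 236 and 520 CPM (-1.15, -1.64 to -0.62), with 3 at 0 and ranges per 10000 UMIs of 0 to 12.4 and 0 to 23. Itgax is on that list and held 95 of its 118 unnamed and 37 of its 47 TG UMIs. The 10 markers of mature dendritic cells summed to 978 and 1471 CPM (-0.59, -0.87 to -0.30). Ccl5 is 1 of these 10 and held 141 of their 489 unnamed and 80 of their 133 TG UMIs. That sum is therefore not independent of the Ccl5 ratio. The 11 T cell markers summed to 416 and 608 CPM (-0.56, -0.98 to -0.09), and the 10 B cell markers to 968 and 1260 CPM (-0.38, -0.68 to -0.07). Higher in unnamed cells were the Kupffer cell or macrophage markers given above (0.85, 0.36 to 1.43) and the 20 neutrophil markers (1.07, 0.79 to 1.38). The 11 markers of type 1 conventional dendritic cells (7830 and 6214 CPM, 0.33, 0.21 to 0.46) and the 13 classical monocyte markers (5655 and 4500 CPM, 0.33, 0.18 to 0.48) were higher too. The part of these cells in the ratios, those of Apoe and Ccl5 included, was not tested. Of 8 TGF-β pathway genes, 3 were at least 2-fold lower and none higher, against 6.46% and 9.02% of all genes, with a median of -0.78. The 3 were Tgfbr1 (31 and 12 UMIs), Smad2 (19 and 7 UMIs) and Tgif1 (46 and 17 UMIs). The intervals of Tgif1 (-1.86 to -0.13) and, narrowly, Tgfbr1 lay below 0, and that of Smad2 did not. With TMM scaling none of the 8 was past 2-fold. The mitochondrial genes mt-Cytb (2333 and 5440 CPM) and mt-Nd4 were also lower, and the median mitochondrial share was 2.47% in unnamed and 5.74% in TG cells at median depths of 4569 and 2931 UMIs. The part of this difference in the ratios was not tested. MHC class II, class I and type I interferon genes had medians of 0.19, 0.12 and 0.11.

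**Figure D4:**
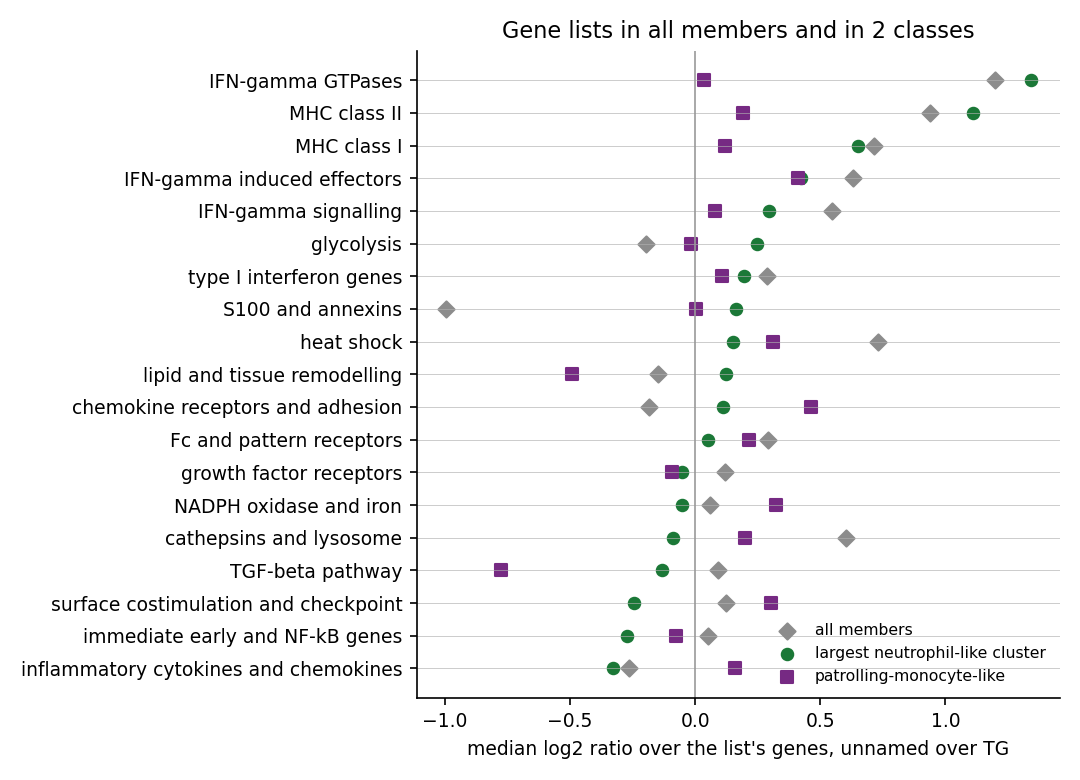
Median log2 ratio (unnamed over TG) of each gene list, over its genes with at least 20 UMIs, in all members (grey diamonds), the largest neutrophil-like cluster (green circles) and the patrolling-monocyte-like cells (purple squares), for lists with at least 5 such genes. The GTPases lie at 1.20, 1.34 and 0.04, and type I interferon genes at 0.29, 0.20 and 0.11.

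All neutrophil-like cells together, 78 unnamed and 87 TG, showed wider differences than the largest cluster, but 70 of the unnamed and 54 of the TG cells came from that cluster. All 10 GTPases with at least 20 UMIs were at least 2-fold higher in unnamed cells (median log2 ratio 2.06), against 6.49% of 3588 genes (233 genes), while 184 genes (5.13%) were at least 2-fold lower. Of the 10, 4 had fewer than 10 TG UMIs and passed the minimum through the unnamed group, so the count is given as a description. With TMM scaling all 10 stayed past 2-fold, and 195 of all genes were higher and 226 lower. Cxcl10 stood at 888 and 70.4 CPM. Among genes with at least 100 UMIs, the lowest ratios included those of granule genes of the smaller clusters, such as Ltf (2115 and 7774 CPM) and Camp (2336 and 8278 CPM), and of Cybb, the NADPH oxidase subunit (690 and 2226 CPM). In the Camp cluster, with 6 unnamed and 16 TG cells, GTPases summed to 925 CPM (684 to 1223) and 199 CPM (126 to 298). These sums rest on 49 and 23 UMIs. In addition, 1 of the 6 unnamed cells held 29847 UMIs in all and so weighed heavily on the unnamed value. The deepest neutrophil-like TG cell held 9644. In the Mmp8 cluster the 2 unnamed cells held 3 GTPase UMIs, too few to compare.

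Among the remaining lists over all members, cell cycle genes had a median log2 ratio of 1.58, but few cells carried them. Top2a, a topoisomerase of dividing cells, had 125 UMIs in unnamed and 9 in TG members, and 3 unnamed cells held 78.4% of its UMIs. Heat shock genes had a median of 0.73 and cathepsin and lysosome genes of 0.60, whereas S100 and annexin genes had one of -0.99. In the largest neutrophil-like cluster these last 3 lists stood at 0.15, -0.09 and 0.16.

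Antibody counts gave a readout of the surface of the same cells, compared as shares of all antibody counts. Over all members 7 of 47 proteins were past 2-fold, of which CD366 (1.41), CD43 (1.25) and CD9 (1.04) were higher in unnamed cells and CD4 (-1.32), TCR-Valpha2 (-1.30), CD357 (-1.20) and CD45R (-1.06) lower. CD43, a sialomucin of leucocytes, was higher in both classes: in the largest neutrophil-like cluster it took 3.19% of antibody counts of unnamed and 1.35% of TG cells (1.24, 1.15 to 1.33), with medians of 36 and 19 counts per cell, and in the patrolling-monocyte-like cells 10.5% and 7.43% (0.49, 0.45 to 0.54). The RNA of its gene Spn had 8 and 1 UMIs in the neutrophil-like cluster and 250 and 34 in the patrolling-monocyte-like cells (0.39, -0.11 to 0.97). CD9, a tetraspanin, took 15.2% and 7.36% in the patrolling-monocyte-like cells (1.04, 1.00 to 1.09), while in the neutrophil-like cluster it stood at -0.18. Of 46 proteins compared there, 2 were past 2-fold, CD9 and CD62L (1.03, 33 counts in TG cells), and CD95, the death receptor FAS, stood at 0.99 in the patrolling-monocyte-like cells.

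In the largest neutrophil-like cluster 10 of 45 proteins were past 2-fold, and all but CD43 were lower on unnamed cells: the T cell proteins CD4, CD5, CD8b, CD28, CD90.2, TCR-beta and TCR-Valpha2, and CD45R and CD23, which mark B cells. Few TG cells held much of these counts. CD4 took 0.248% and 0.859% of antibody counts (-1.79, -1.98 to -1.60), with medians of 2.5 and 8.5 counts per cell, and 3 TG cells held 50.5% of the TG counts. CD28 stood at -1.58 with medians of 4 and 3 counts per cell, and 3 TG cells held 73.9% of its TG counts. For CD5, CD8b, TCR-beta, TCR-Valpha2 and CD45R, 3 TG cells held from 52.9% to 70.5%, and the medians were equal for CD8b (3 and 3), TCR-beta (6 and 6) and CD23 (2 and 2). CD90.2 had medians of 21 and 38 counts per cell, with 36.8% of TG counts in 3 cells. The 11 T cell marker genes summed to 333 CPM in unnamed and 317 CPM in TG cells of this cluster. CD44, which took 63.1% and 61.3% of counts, stood at 0.04.

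**Figure D5:**
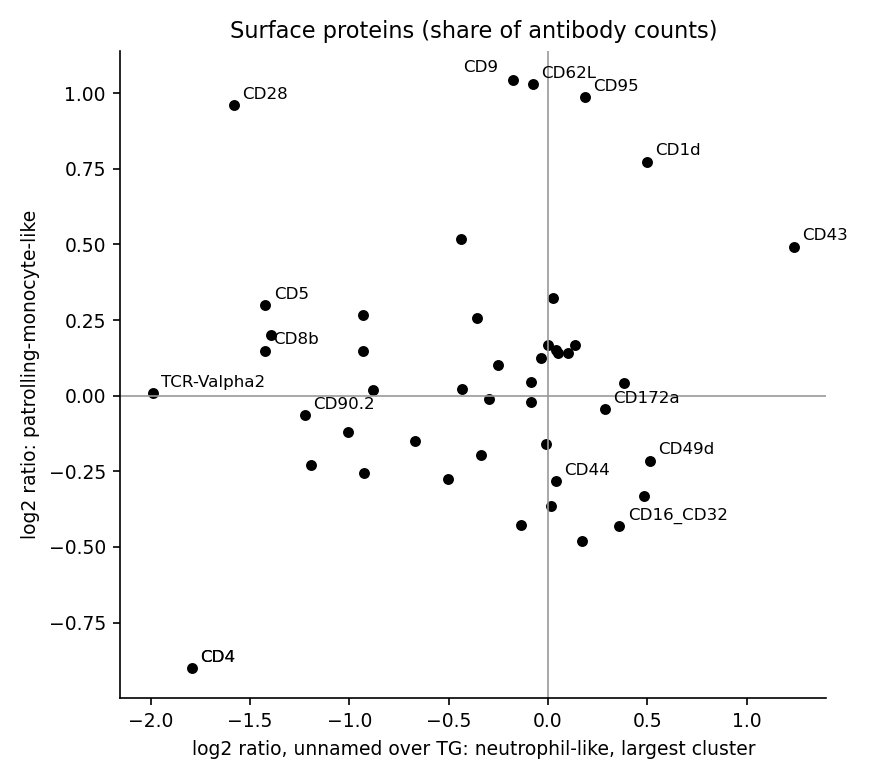
Log2 ratio (unnamed over TG) of each surface protein's share of antibody counts in the largest neutrophil-like cluster (horizontal) and the patrolling-monocyte-like cells (vertical), 1 point per protein. CD43 lies at 1.24 and 0.49, CD9 at -0.18 and 1.04, and CD4 at -1.79 and -0.90.

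The lymphocytes of the library gave a reference for the same groups. In B cells the GTPases had a median log2 ratio of 1.03, with 9 of 18 at least 2-fold higher in unnamed cells, against 0.05 and 2.46% of all 9948 genes compared. In T cells the median was 0.50, with 2 of 18, against 0.03 and 3.65% of 11401 genes. Cd3e-positive cells held Ifng at 242 CPM in unnamed (234 to 250) and 171 CPM in TG cells (164 to 178), and Tgfbr2 at 153 and 311 CPM. The same cells held Cd4 at 166 and 288 CPM and Cd8a at 528 and 408 CPM. The part of this makeup in the Ifng and Tgfbr2 values was not tested. In WT cells of the other library, captured apart and so not compared by ratio, GTPases summed to 402 CPM in annotated monocytes and 693 CPM in annotated macrophages. TG cells under those annotations stood at 2352 and 1727 CPM. Annotated neutrophils stood at 16.4 CPM in WT cells, from 1 UMI, and at 360 CPM in TG cells. The WT cells were not clustered here, so cells under the same annotation may differ in type.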

How the data were processed

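RNA and surface proteins were measured in CD45+ liver cells by single-cell capture in microwells with antibody tags (BD Rhapsody). Reads were aligned to mm10 with STAR in the BD Rhapsody pipeline. The authors deposited UMI counts per cell and an annotation with cell names and the mitochondrial percent of each cell. Cells with no annotated name were kept as unnamed. Members had at least 3 Lyz2 UMIs and no Cd3e or Cd79a. The members and gene lists were chosen with earlier results of these data known. UMIs were summed by group and scaled to CPM (per 1000000 UMIs). Log2 ratios used a pseudocount of 0.5, with exact conditional intervals (scipy 1.17.1), and shares had Clopper-Pearson intervals. There was no test, since there was 1 library. Genes needed at least 20 UMIs over both groups. A group with no UMI was set at a floor of 3 UMIs over the group. Script steps were tested on simulated data.

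Members were clustered with scanpy 1.11.5 and leidenalg 0.10.2 (2000 variable genes, 20 components, resolution 0.8), leaving out interferon, MHC, ribosomal, mitochondrial and sex genes. A cluster was named from at least 3 markers among its 30 leading genes. Scrublet marked 3 of 10026 cells as doublets and so did not work; cells with at least 2 UMIs of T, NK or B cell markers were left out in an alternative instead. TMM factors came from edgeR 4.0.16. Named were listed genes with at least 20 UMIs and, for each set, the 10 highest and 10 lowest ratios, from genes that held 100 or more UMIs (10 or more per group), were seen in at least 5% of cells of the higher group and had 1 direction under every scaling. Of 531 listed genes, 12 were not analysed here. The values of 1 listed gene are not reported here. Alternatives changed the scaling, depth, Lyz2 minimum, count minimum, weighting of cells and classes, and cells kept.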

Additional observations from a re-analysis of the deposited data

How the results depend on the processing

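The median log2 ratio of the IFN-γ-inducible GTPases over all members ranged from 0.96 to 1.51 over the alternatives run. The number of genes at least 2-fold higher in unnamed members, 743 as reported, was 267 with each cell thinned to 1000 UMIs, 476 with classes given equal weight and 2080 with no count minimum. The number lower, 292 as reported, was 135 when thinned and 1769 with no minimum. These are counts over different sets of genes, as thinning left 2666 to compare and no minimum 13063. The MHC class II median was 1.48 without cells carrying lymphocyte transcripts, and 2 surface proteins were past 2-fold within the patrolling-monocyte-like cells, an alternative chosen after seeing the data. Among 2549 pairs of a named gene and an alternative, 2299 moved by less than counting error and 244 moved further. The other 6 were counted as reversed in sign. They included Slamf8 over all members (-0.67, thinned) and, in the patrolling-monocyte-like cells, B2m (0.040, TMM). The rest, in those cells without lymphocyte transcripts, were H2-D1 (-0.022), Ifitm3 (-0.0066), Il1b (-0.070) and S100a8 (-0.17). The cause of these 6 reversals was not tested. This count leaves out further changes of sign. With TMM scaling, the IFN-γ signalling genes above 0 over all members went from 15 to 12 of 18. The GTPases above 0 in the patrolling-monocyte-like cells went from 8 to 10 of 14. The neutrophil-like class clustered on all variable genes held 37 unnamed and 70 TG cells, against 78 and 87 as reported. It was not compared, as 37 is under the minimum of 40, although the patrolling-monocyte-like class was compared under a minimum of 20. How the neutrophil-like result depends on that clustering is therefore not known.

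No paired analysis was possible because both groups came from 1 library. Intervals leave out variation between mice, the genotype of unnamed cells is not given, and 26 TG patrolling-monocyte-like cells limit that comparison.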
